A study of Canis lupus familiaris with 9 samples.

Results

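The genes described here encode parts of MHC class I molecules and of the machinery that loads them with peptide. Rows were taken by gene symbol, and 8 of the 9 listed genes were found among the 28008 features. For class I itself these were a heavy chain, DLA-64, and the light chain B2M. The others were the peptide transporter subunit TAP1, the peptide editors TAPBP and TAPBPL, the trimming enzymes ERAP1 and ERAP2, and the transactivator NLRC5. TAP2 was not analysed here. The controls were 3 libraries of CD4+ T cells, sorted from healthy female hounds aged 1 year, and were set against 6 CD4+ peripheral T cell lymphomas. Of these, 3 came from Boxers, a castrated male aged 6 years, a spayed female aged 8 and a castrated male aged 6. The others came from a spayed Cavalier King Charles Spaniel aged 3, a spayed Rhodesian Ridgeback aged 4 and a castrated Collie aged 11 years, in the order of their replicate numbers. Breed, age, sex and neutering therefore differ between controls and lymphomas along with disease. For the lymphomas the labels give neither a tissue nor a sort. Whether the 3 controls are separate dogs is also not stated there, and the p-values then describe only how far these samples scatter, which may be technical.

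Class I molecules display peptides from inside the cell to CD8+ T cells. The heavy chain pairs with B2M, which the molecule needs to reach the surface. Peptides cut by the proteasome are pumped into the endoplasmic reticulum by the TAP transporter and shortened there by the aminopeptidases ERAP1 and ERAP2. Tapasin, encoded by TAPBP, holds the heavy chain at TAP while peptides are exchanged, and its relative TAPBPL edits peptides away from TAP. NLRC5 is the transactivator of class I genes, and in many cells interferon gamma raises the whole set. Lymphocytes normally carry much class I on their surface.

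Values are normalised read counts, that is, reads of a gene divided by the size factor of its library. Libraries held 11710623 to 18488468 reads. The least covered of these genes in any library was ERAP2 in Boxer lymphoma 1, with 325 reads, for which counting alone gives a relative error of 5.55%. Of 10 T cell markers 8 were found, and CD4 and CD247 were not analysed here. The summed level of these 8 was 79863 to 82813 normalised reads in the controls and 64362 to 107135 in the lymphomas, so T cell RNA was high in both groups. It was not equal: Boxer lymphomas 1 and 3 and other-breed lymphomas 2 and 3 lay below every control (64362 to 72906), and the remaining lymphomas above. Single markers differed, with mean CD5 at 10501 in controls and 3255 in lymphomas, and mean CD3G at 10446 and 14884. Since the samples are bulk, fewer cells of a type and less RNA per cell cannot be told apart.

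Compared with normal CD4+ T cells, the lymphomas had lower DLA-64, TAPBPL and TAP1. By limma at an adjusted p under 0.05, 3 of the 8 genes were lower and 0 were higher, against 15.7% lower and 19.4% higher among all 15977 genes tested, or 35.0% in either direction. The median log2 fold change of the 8 genes was -0.92, and that of all genes tested was 0.05. The 2 groups did not overlap for 4 of the 8 genes, all lower in lymphomas, where 17.2% of all genes tested were lower and 18.5% higher without overlap.

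**Figure D1:**
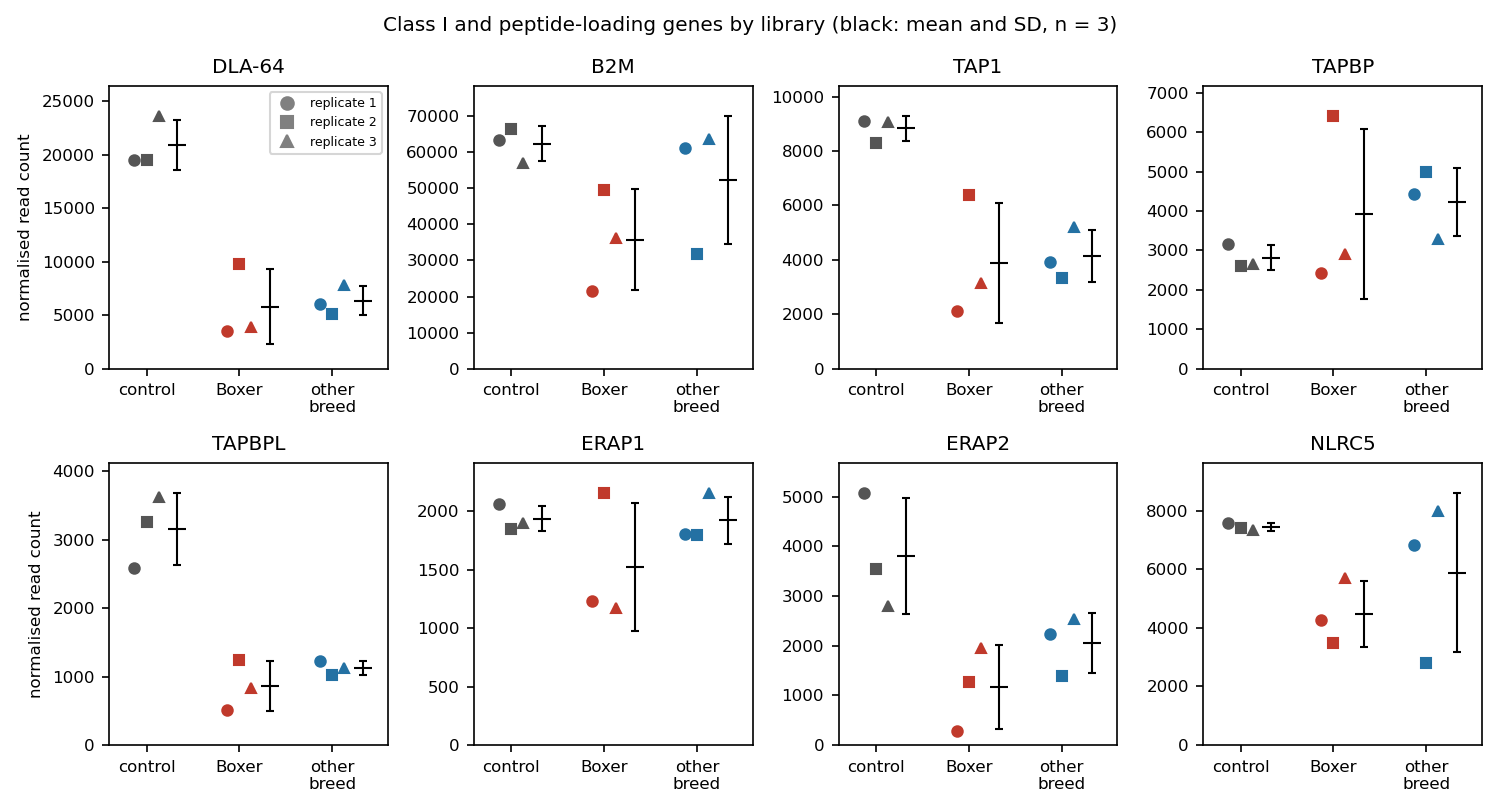
Normalised read counts (vertical axes, from 0) of the 8 genes in each library, by group (horizontal axes). Symbols mark the replicate number, and black lines give the mean and SD of 3 libraries. For DLA-64, TAP1, TAPBPL and ERAP2 every lymphoma lies below every control.

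Summed markers of macrophages, fibroblasts and neutrophils were higher in every lymphoma than in every control. The controls were sorted and the labels give no sort for the lymphomas, so disease and sorting cannot be told apart here. The summed level of 11 macrophage markers was 130 to 201 in the controls and 922 to 21336 in the lymphomas. That of 9 fibroblast markers was 20.6 to 38.2 and 77.3 to 11350, and that of 5 neutrophil markers 17.3 to 32.4 and 104 to 412, again without overlap. In the controls FCER1G, LUM, MMP2 and ELANE had no reads. The sums of 7 endothelial markers (307 to 696 in controls, 94.2 to 6487 in lymphomas), 8 B cell markers (2406 to 2648 and 1881 to 7291), 5 killer cell markers (40.5 to 161 and 93.5 to 231) and 7 dendritic cell markers (126 to 181 and 179 to 1224) overlapped. Other-breed lymphomas 1 and 2 had the lowest fibroblast sums, 139 and 77.3, and the lowest endothelial sums of the 6 lymphomas, and in both DLA-64, TAP1, TAPBPL and ERAP2 were below every control. Without these 2 libraries 3 of the 8 genes were lower, against 2696 of all 15597 genes tested in that fit. That fit keeps the lymphomas with the higher fibroblast and endothelial sums, so it cannot decide the part of non-tumour RNA. The part of macrophage and other non-tumour RNA in these differences was not tested.

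DLA-64 (ENSCAFG00000000500), a class I heavy chain, had 19491, 19515 and 23575 normalised reads in controls 1, 2 and 3. It had 3543, 9792 and 3922 in Boxer lymphomas 1, 2 and 3, and 6068, 5142 and 7824 in other-breed lymphomas 1, 2 and 3. All 6 lymphomas lay below every control, and the highest of them, Boxer lymphoma 2, reached 46.9% of the control mean. DLA-64 fell from 20860 ± 2351 (SD, n = 3) to 6048 ± 2400 (n = 6), with a log2 fold change of -1.87 ± 0.31 (standard error; adjusted p = 0.0015 by limma). This call held under all 22 alternative settings. Several class I loci of the dog are similar in sequence, so reads counted for DLA-64 may in part stem from other class I loci. The listed loci DLA-88, DLA-12 and DLA-79 were not analysed here, so these values do not describe class I heavy chains as a whole.

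The light chain B2M (ENSCAFG00000013633) did not pass the threshold. Its controls had 63564, 66605 and 57137 normalised reads. Boxer lymphomas 1, 2 and 3 had 21524, 49530 and 36112, and other-breed lymphomas 61193, 31760 and 63812. Other-breed lymphomas 1 and 3 were within the control range and the remaining 4 were below it, so the groups overlapped. The log2 fold change was -0.60 ± 0.34 (95% confidence interval -1.36 to 0.16, limma adjusted p = 0.191).

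Within a library, the ratio of DLA-64 to B2M does not depend on how that library was scaled. It was 0.293 to 0.413 in the controls and 0.0992 to 0.198 in the lymphomas, with no overlap. The lymphoma mean of the log2 ratio minus the control mean was -1.27 (exact two-sided permutation p = 0.0119, the smallest that 84 ways of choosing 3 of 9 libraries allow, Benjamini-Hochberg adjusted p = 0.0179 over 3 ratios). Leaving out any 1 control gave an adjusted p of 0.0536 for this ratio and for that of TAPBPL to TAPBP, with each at the smallest p that 8 libraries allow. Relative to B2M, DLA-64 was lower in each of the 6 lymphomas than in any control. The pairs of genes for these ratios were chosen with the fall of DLA-64, TAPBPL and TAP1 already known, so the p-values of the ratios are no independent support.

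TAP1 (ENSCAFG00000000832), the transporter subunit, had 9094, 8310 and 9076 normalised reads in the controls. The values were 2126, 6380 and 3134 in Boxer lymphomas 1, 2 and 3, and 3921, 3334 and 5198 in other-breed lymphomas 1, 2 and 3. Again each lymphoma was below every control, from 24.1% to 72.3% of the control mean. TAP1 fell from 8827 ± 448 (SD, n = 3) to 4016 ± 1537 (n = 6), with a log2 fold change of -1.22 ± 0.30 (standard error; adjusted p = 0.0104 by limma). With sex as a covariate the change was -1.01 and the limma adjusted p 0.0501. All controls are female, so this change is that of the female lymphomas alone.

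In the dog assembly UU_Cfam_GSD_1.0 of RefSeq, TAP1 lies between PSMB8 and PSMB9, which encode subunits of the immunoproteasome. PSMB9 fell from 3925 ± 131 to 2238 ± 902 (log2 fold change -0.91 ± 0.31, limma adjusted p = 0.0417), a call that ended under 12 of 22 alternative settings, edgeR among them (adjusted p up to 0.151). It was also the gene whose pattern over the 6 lymphomas was most like that of TAP1 among 8519 genes with a symbol and a mean of at least 100 (Pearson r = 0.99, n = 6). The next were COMMD8, IER3, EGFL7 and DNAJB6, with r of 0.98 to 0.99. With so many genes and 6 points, values this high are a description of these libraries. PSMB8 had a log2 fold change of -0.99 ± 0.40 (limma adjusted p = 0.0801).

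The editors TAPBP and TAPBPL differed from each other. TAPBPL (ENSCAFG00000015143) had 2587, 3253 and 3628 normalised reads in the controls, 509, 1234 and 835 in Boxer lymphomas 1, 2 and 3, and 1232, 1023 and 1124 in other-breed lymphomas. No lymphoma exceeded 39.1% of the control mean. TAPBPL fell from 3156 ± 528 (SD, n = 3) to 993 ± 280 (n = 6), with a log2 fold change of -1.71 ± 0.27 (standard error; adjusted p = 0.00139 by limma), and this call held under all 22 alternative settings.

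TAPBP (ENSCAFG00000000972), which encodes tapasin, had 3175, 2615 and 2648 normalised reads in the controls. Boxer lymphomas 1, 2 and 3 had 2437, 6407 and 2918, and other-breed lymphomas 4420, 4984 and 3300. Of the 6 lymphomas 4 were above every control, 1 was within the control range and 1, Boxer lymphoma 1, was below it. The log2 fold change was 0.46 ± 0.28 (95% confidence interval -0.16 to 1.09, limma adjusted p = 0.22). It was 0.89 with sex as a covariate (limma adjusted p = 0.0108) and in female dogs alone (limma adjusted p = 0.0133). All controls are female, so these settings give the same estimate. Both set Boxer lymphoma 2 and other-breed lymphomas 1 and 2 against the controls.

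The ratio of TAPBPL to TAPBP, a pair chosen with the fall of TAPBPL known, was 0.815, 1.24 and 1.37 in the controls and 0.193 to 0.341 in the lymphomas, with no overlap. TAPBPL alone already did not overlap. The lymphoma mean of the log2 ratio minus the control mean was -2.18 (exact two-sided permutation p = 0.0119, adjusted p = 0.0179 over 3 ratios).

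**Figure D2:**
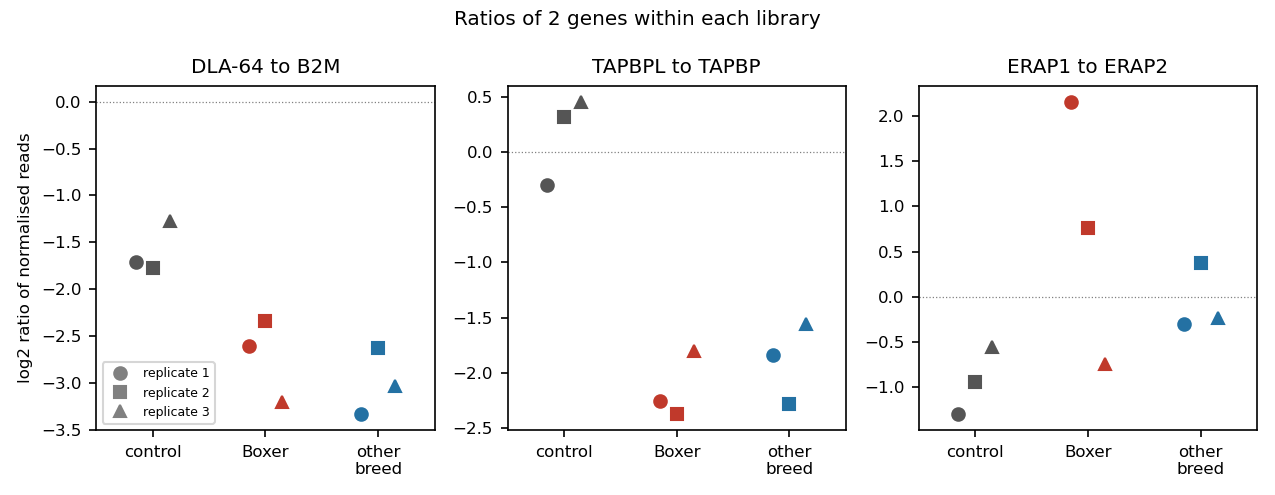
Log2 ratio of normalised reads of a pair of genes (vertical axes) in each library, by group (horizontal axes), with symbols for the replicate number. The ratios of DLA-64 to B2M and of TAPBPL to TAPBP are lower in all 6 lymphomas than in all 3 controls, while the ratio of ERAP1 to ERAP2 overlaps.

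The trimming enzymes ERAP1 and ERAP2 lie side by side in the same RefSeq assembly and did not pass the threshold. ERAP1 (ENSCAFG00000007810) had 2062, 1850 and 1903 normalised reads in the controls. It had 1237, 2160 and 1177 in Boxer lymphomas 1, 2 and 3, and 1810, 1800 and 2157 in other-breed lymphomas. Lymphomas lay on both sides of the controls, with 4 below and 2 above. The log2 fold change was -0.21 ± 0.22 (95% confidence interval -0.69 to 0.28, limma adjusted p = 0.479).

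ERAP2 (ENSCAFG00000024646) had 5082, 3553 and 2796 normalised reads in the controls. Boxer lymphomas 1, 2 and 3 had 276, 1277 and 1964, and other-breed lymphomas 2234, 1385 and 2538. Each lymphoma was below each control, though other-breed lymphoma 3 lay close to control 3. The log2 fold change was -1.48 ± 0.60 (95% confidence interval -2.80 to -0.15, limma adjusted p = 0.0789). Boxer lymphoma 1, at 7.25% of the control mean, stood apart from the rest, and without it the change was smaller and passed (-1.03, adjusted p = 0.0188). DESeq2's Wald test on recovered reads gave an adjusted p of 0.0441. The ratio of ERAP1 to ERAP2 was 0.406 to 0.681 in the controls and 0.599 to 4.48 in the lymphomas, and the difference in log2 ratio of 1.27 did not pass (exact two-sided permutation p = 0.0833, adjusted p = 0.0833 over 3 ratios). Without Boxer lymphoma 3 it was 1.48 (adjusted p = 0.0357).

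NLRC5 (ENSCAFG00000008933), the transactivator, had 7590, 7404 and 7346 normalised reads in the controls, the tightest control values of the 8 genes (SD 0.02 on the log2 scale). Boxer lymphomas 1, 2 and 3 had 4283, 3476 and 5691, and other-breed lymphomas 6850, 2818 and 8010. Of the 6 lymphomas 5 were below every control and other-breed lymphoma 3 was above. The log2 fold change was -0.62 ± 0.31 (95% confidence interval -1.30 to 0.06, limma adjusted p = 0.14).

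The order of the lymphomas by NLRC5 was not that of DLA-64, TAP1, TAPBP, TAPBPL and ERAP1. Boxer lymphoma 2 had the highest DLA-64, TAP1, TAPBP, TAPBPL and ERAP1 of the 6 lymphomas, and the second lowest NLRC5. Other-breed lymphoma 3 had the highest NLRC5, B2M and ERAP2. Over the 6 lymphomas the Pearson r with NLRC5 was 0.58 for B2M and 0.46 for ERAP2. It was 0.02 to 0.15 for DLA-64, TAP1, TAPBPL and ERAP1, and -0.45 for TAPBP. Genes most like NLRC5 over the 6 lymphomas were RBMS1, STXBP4, EIF4B, SOX13 and NR3C1, with Pearson r of 0.96 to 0.99 (n = 6). For B2M they were PEF1, BATF, TGFBR3, CDC42SE1 and CRTAP, also with r of 0.99. Both lists are the top of 8519 genes over 6 points, so values this high only describe these libraries.

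**Figure D3:**
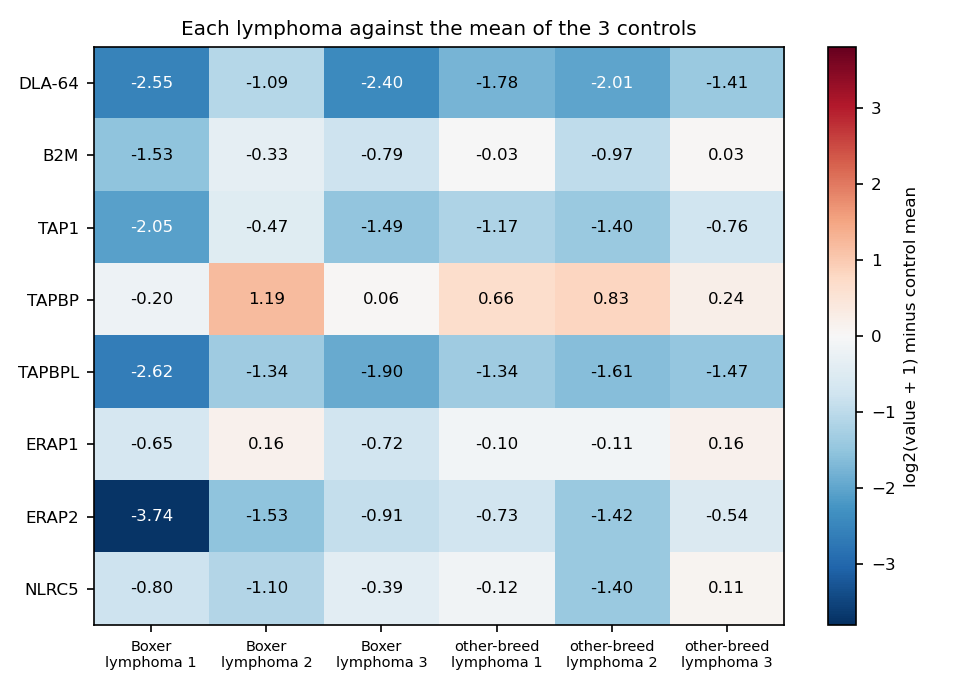
Difference in log2(value + 1) between each lymphoma (columns) and the mean of the 3 controls, for the 8 genes (rows). Blue is lower and red is higher than the controls. Boxer lymphoma 1 is lowest in 6 of the 8 rows.

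Taken one by one, the lymphomas differed in how many of the 8 genes were below every control. Boxer lymphoma 1 was below all controls for 8 of 8, with a median log2 difference from the control mean of -1.79 against 0.07 over all genes tested. It had the lowest value of the 6 lymphomas for DLA-64, B2M, TAP1, TAPBP, TAPBPL and ERAP2. Boxer lymphoma 3 and other-breed lymphoma 2 were each below all controls for 7 genes, with medians of -0.85 and -1.40. Boxer lymphoma 2 and other-breed lymphoma 1 were below all controls for 6 genes, with medians of -0.78 and -0.42. Small differences count here where the controls were tight. Other-breed lymphoma 1 was at 0.92 of the control mean for NLRC5 and at 0.93 for ERAP1. Other-breed lymphoma 3, from the Collie, was below for 4 and above for 3 (TAPBP, ERAP1 and NLRC5), with a median of -0.25. Over all genes tested, the medians of the 6 lymphomas lay between -0.00046 and 0.079. The share of all genes below every control in a single lymphoma was not computed, so these counts have no background.

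The spread among lymphomas exceeded that among controls for each of the 8 genes. On the log2 scale the SD of the lymphomas was 0.38 for ERAP1, 1.17 for ERAP2 and 0.49 to 0.61 for the remaining 6. The median SD of all genes tested was 0.56 in lymphomas and 0.25 in controls. The highest lymphoma value of ERAP2 was 9.19 times the lowest, while for the other genes this ratio was 1.84 to 3.00.

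The lymphomas of Boxers and of other breeds were then compared with each other, without the controls. Of the 8 genes 0 passed by limma, edgeR or DESeq2, 0 had an unadjusted limma p under 0.05, and the groups overlapped for 8 of 8. Among all 15112 genes tested 0.00% were called by limma, and 4.99% were higher and 5.70% lower without overlap. There were 753 at an unadjusted p under 0.05, while DESeq2 called 102 genes and edgeR 0. The fitted change was below 0 for all 8 genes, lower in Boxers, but the intervals were wide: -0.28 for DLA-64 (95% confidence interval -1.25 to 0.69), -0.23 for TAP1 (-1.19 to 0.74), -0.48 for TAPBPL (-1.26 to 0.31) and -1.17 for ERAP2 (-2.82 to 0.48). A level 2-fold lower in Boxers lay within the interval for 8 of the 8 genes. Without Boxer lymphoma 1 the change of TAP1 was 0.13 and that of TAPBP 0.051.

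**Figure D4:**
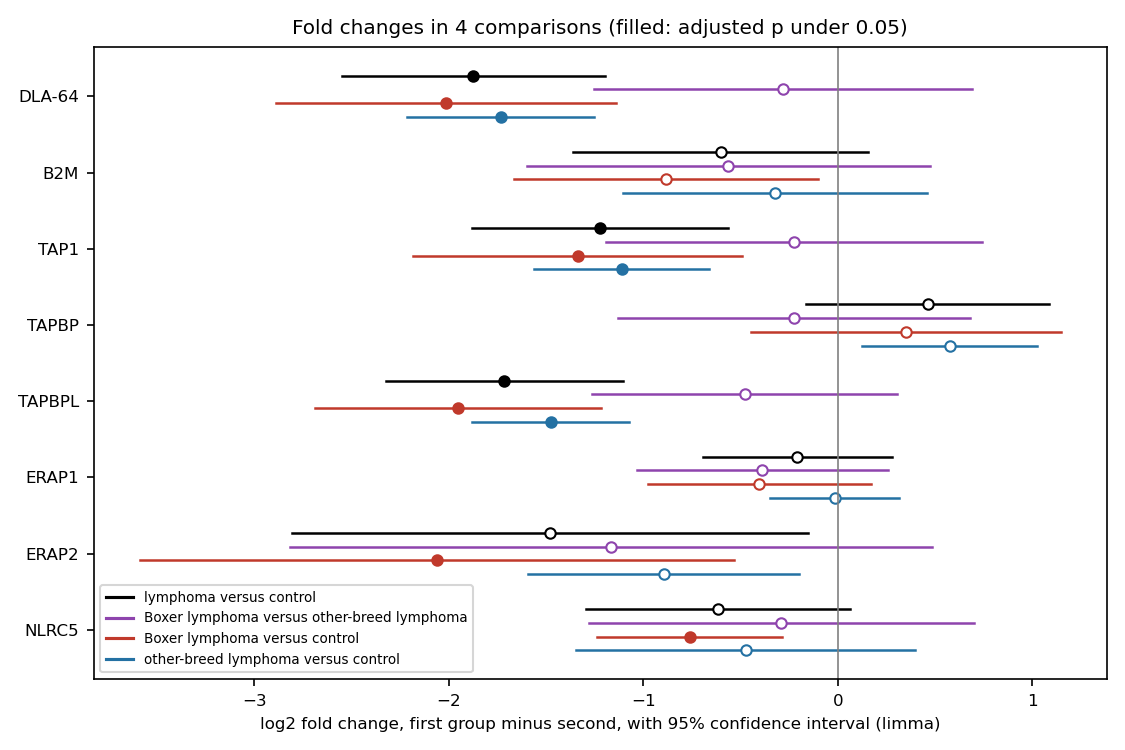
Log2 fold change with 95% confidence interval (horizontal axis) of the 8 genes (vertical axis) in the 4 comparisons, by colour. Filled points passed limma at an adjusted p under 0.05. DLA-64, TAP1 and TAPBPL are filled in the 3 comparisons with controls, and no point is filled between the lymphoma groups.

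Each lymphoma group was also set against the same 3 controls, which the 2 comparisons share. In Boxers 5 of 8 genes were lower and 0 higher, against 17.9% lower and 21.5% higher among all genes tested, or 39.3% in either direction. The groups did not overlap for 6 of the 8, all lower, with 26.3% of all genes lower and 28.5% higher in that way. Those that passed were DLA-64 (-2.01 ± 0.38), TAPBPL (-1.95 ± 0.32), TAP1 (-1.34 ± 0.36), ERAP2 (-2.06 ± 0.66) and NLRC5 (-0.76 ± 0.21), with limma adjusted p of 0.0029 to 0.0401. The count was 2 without control 1, 2 or 3, in each case with TAP1, NLRC5 and ERAP2 lost (limma adjusted p of 0.0643 to 0.135). Over all genes tested, these fits had 1537 of 14626, 1238 of 14672 and 1376 of 14649 lower. With all controls it was 2706 of 15155. TAP1 was also lost without Boxer lymphoma 3 (0.0612), and ERAP2 without Boxer lymphoma 2 (0.0537) and by edgeR (0.0636). Without Boxer lymphoma 2, B2M (-1.16, adjusted p = 0.0233) and ERAP1 (-0.68, adjusted p = 0.0157) passed. B2M also passed by DESeq2 (0.0347) and with library-total scaling (0.0453), while by limma its adjusted p was 0.0717. With the replicate number as a block, ERAP2 gave an adjusted p of 0.0504.

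In other breeds 3 of 8 genes were lower and 0 higher, against 14.2% lower and 15.5% higher among all genes tested, or 29.7% in either direction. Without overlap 4 were lower and 1 higher, against 24.2% and 24.7% of all genes. DLA-64 (-1.73 ± 0.20), TAPBPL (-1.48 ± 0.17) and TAP1 (-1.11 ± 0.19) fell, with limma adjusted p of 0.00199 to 0.00673. ERAP1 was at -0.016 ± 0.14, with a sign that changed between settings. TAPBP was higher in these 3 lymphomas than in every control (0.58 ± 0.19, adjusted p = 0.0588). It passed by edgeR (0.0482), by DESeq2 (0.0231) and without other-breed lymphoma 3 (0.74, adjusted p = 0.0235). ERAP2 was below every control (-0.89 ± 0.30, adjusted p = 0.0584) and passed by DESeq2 (0.0298) and with library-total scaling (0.0356). NLRC5 (-0.47 ± 0.37) and B2M (-0.32 ± 0.33) did not pass.

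Other genes of the pathway were read from lists by role. In all, 50 of 59 listed genes were tested between lymphomas and controls, and the rest were not analysed here: 13 were higher, 15 were lower and 22 did not pass. Among all 15977 genes tested 19.4% were higher and 15.7% lower, and these shares are the background for each list that follows. The 15 include AZGP1 and IFNG, which met the filter on low values only with the help of the controls, where they are high. The median log2 fold change of the 50 was -0.20, and that of all genes tested 0.05.

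Of 7 transcription factors known to act on class I promoters 7 fell, against 15.7% of all genes tested, with a median log2 fold change of -1.40. IRF9, part of the factor that answers type I interferon, fell from 1875 ± 330 to 710 ± 105 (-1.40 ± 0.17, limma adjusted p = 3.48e-04). IRF1, which interferon gamma induces and which binds class I and TAP1 promoters, fell from 3647 ± 278 to 1144 ± 432 (-1.75 ± 0.29). It was 3366 to 3923 in the controls and 697 to 1707 in the lymphomas. The class II transactivator CIITA (-1.55) and the NF-kappa-B subunit NFKB1 (-0.75) fell as well. Between 5 and 7 of the 7 were lower under each of the 22 alternative settings.

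In the interferon gamma group, IFNG was a low gene, at 69.6, 53.7 and 14.8 normalised reads in controls 1, 2 and 3 and at 0 to 17.0 in the lymphomas, so that control 3 lay within the lymphoma range. Only 2 lymphomas reached the minimum of 10, so it entered the test with the help of the controls (-3.56 ± 1.05, limma adjusted p = 0.025). Its call ended without control 1 (adjusted p = 0.111), without control 2 (0.105), with sex as a covariate (0.0657) and by edgeR (0.0532). The receptor gene IFNGR1 was at 4194 ± 463 and 4308 ± 514. JAK1 (-0.42 ± 0.17) and JAK2 (-0.33 ± 0.21), the kinases of that receptor, did not pass.

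Subunits of the enhanceosome, the complex that NLRC5 joins at class I promoters, mostly did not pass. Of 8 tested, against 15.7% lower and 19.4% higher among all genes, 1 fell, RFX5 (-1.12 ± 0.24, limma adjusted p = 0.00568), and 1 rose, NFYB (0.83 ± 0.29, adjusted p = 0.0454). The call of NFYB ended under 12 of the 22 alternative settings, 7 of them with a single library left out. With age as a covariate its change was 0.41 (limma adjusted p = 0.57). All controls are aged 1 year and every lymphoma is older, so that fit takes its age slope from the lymphomas alone. It extrapolates them to the age of the controls and cannot separate age from disease. RFX5 passed whichever library was left out, and age as a covariate gave it an adjusted p of 0.156.

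Of 9 chaperones and translocation factors of the endoplasmic reticulum 6 rose and 0 fell, against 19.4% higher and 15.7% lower among all genes tested, with a median log2 fold change of 0.62. Calreticulin (CALR), a chaperone of the loading complex, was 3112 to 3447 in the controls and 5031 to 9823 in the lymphomas (1.09 ± 0.20, limma adjusted p = 0.00288). UGGT1 (0.50), which checks glycoprotein folding, SEC61A1 (0.82), a translocon subunit, and calnexin (CANX, 0.92) rose too. Of the 6, CALR alone passed whichever control was left out: the number that rose was 3 without control 1, 1 without control 2 and 1 without control 3. As covariates, sex left 3 and age left 0 that rose. Over all genes tested, 3092 of 15977 were higher in the main fit. Without control 1, 2 and 3 these were 2078 of 15654, 1866 of 15713 and 1999 of 15693. With sex they were 2273 and with age 1048, of 15977.

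**Figure D5:**
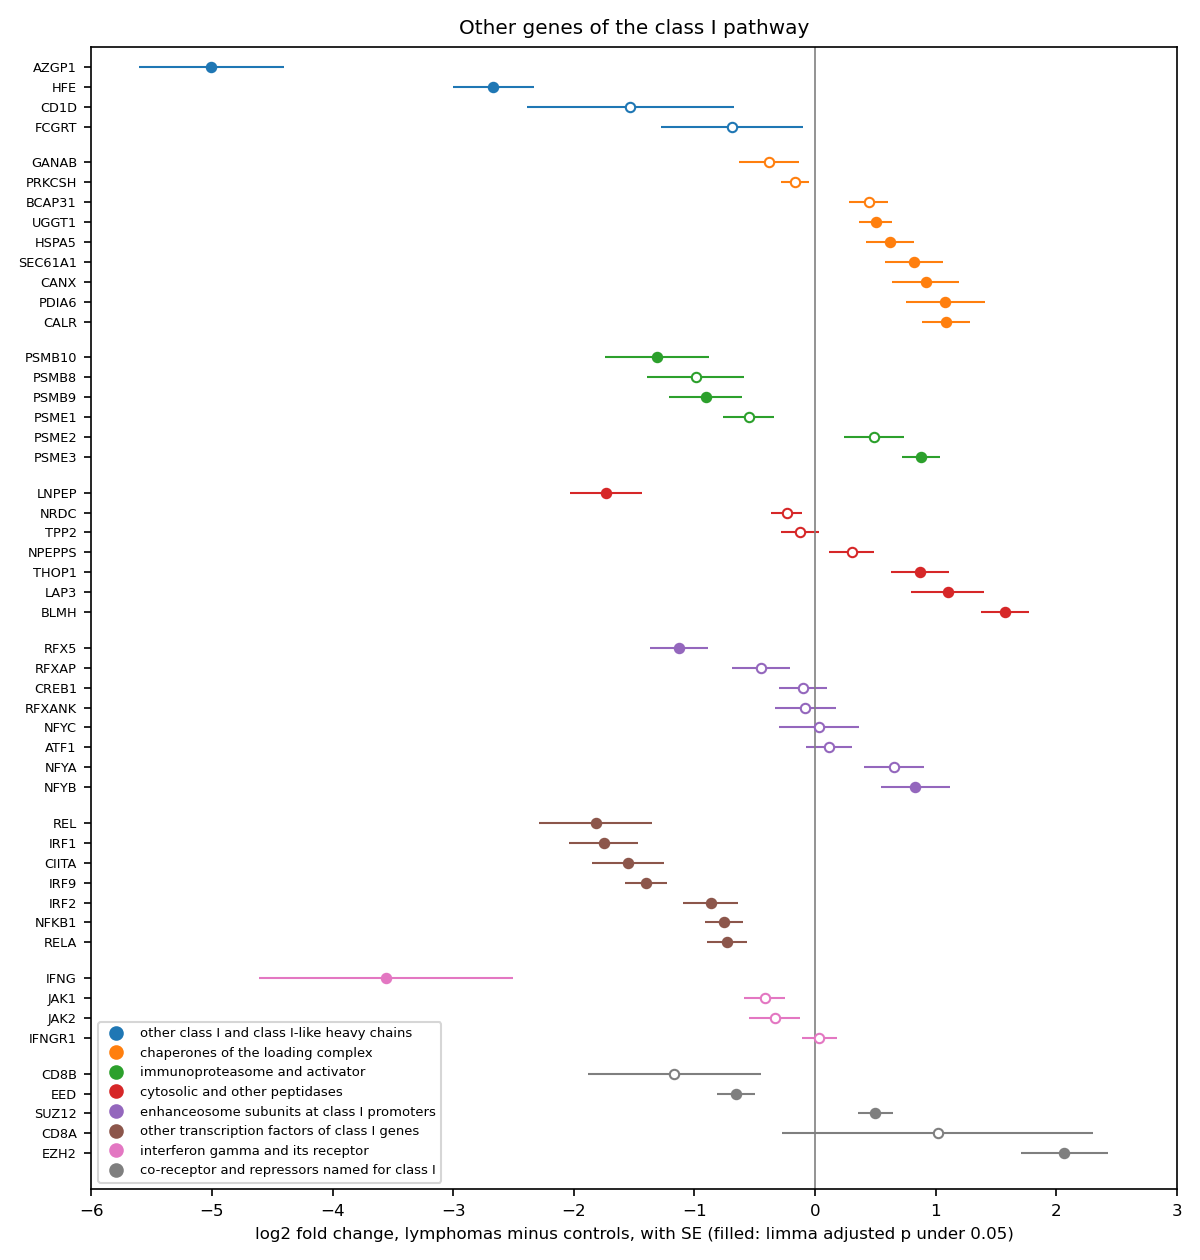
Log2 fold change of lymphomas against controls, with SE (horizontal axis), for 50 other genes of the class I pathway (vertical axis), coloured by list. Filled points passed limma at an adjusted p under 0.05. The 7 listed transcription factors are all below 0, and 6 of the 9 chaperones are filled above 0. The point of AZGP1, without reads in the lymphomas, depends on the pseudocount.

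Among proteasome genes 2 of 6 fell and 1 rose, against 15.7% and 19.4% of all genes tested, with a median of -0.73. The immunoproteasome subunits PSMB10 (-1.31 ± 0.43) and PSMB9 fell, and PSME3 (0.88 ± 0.16), an activator found mainly in the nucleus, rose. The number that fell was 0 by edgeR (adjusted p of 0.0513 for PSMB9 and 0.0502 for PSMB10), with sex as a covariate, and without control 1, 2 or 3, Boxer lymphoma 3, or other-breed lymphoma 1 or 2, and 4 without other-breed lymphoma 3. PSME3 rose in each of these fits. Over all genes tested, 2504 were lower in the main fit and 1328, 1194 and 1315 without control 1, 2 and 3. They were 2290 by edgeR, 1803 with sex and 2238 without Boxer lymphoma 3. Without other-breed lymphoma 1, 2 and 3 they were 2476, 2605 and 2381.

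Among other peptidases 3 of 7 rose and 1 fell, against 19.4% and 15.7% of all genes tested. Those that rose were BLMH (1.58 ± 0.20), LAP3 (1.10 ± 0.30) and THOP1 (0.87 ± 0.24), enzymes that act on peptides in the cytosol. LNPEP fell (-1.73 ± 0.30, limma adjusted p = 0.00198), a relative of ERAP1 and ERAP2 that lies beyond ERAP2 in the RefSeq assembly and trims peptides in endosomes. With age as a covariate its adjusted p was 0.0641. The list's median was 0.30. Without control 1 or 2 only BLMH rose, with LAP3 at adjusted p of 0.0655 and 0.0748 and THOP1 at 0.0919 and 0.0592. LAP3 was at 0.0532 without control 3. Over all genes tested, 2078 were higher without control 1, 1866 without control 2 and 1999 without control 3, against 3092 in the main fit.

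Of the class I-like heavy chains HFE fell, where 15.7% of all genes tested were lower. HFE, a regulator of iron uptake that pairs with B2M, was 364 to 399 in the controls and 34.8 to 90.6 in the lymphomas (-2.67 ± 0.34, limma adjusted p = 3.75e-04). AZGP1, a soluble class I-like protein, had 98 reads over the 3 controls and none in 6 lymphomas, at least 67.5-fold lower with 3 reads over the lymphomas as the floor. It met the filter on low values only through the 3 controls, which fixed its direction, and it is given as a description. FCGRT (-0.69 ± 0.59) and CD1D (-1.53 ± 0.86) did not pass.

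In the list of the co-receptor that reads class I and of repressors, CD8A (1.02 ± 1.29) and CD8B (-1.17 ± 0.72) did not pass. CD8A was 1089 in other-breed lymphoma 1 and 5.95 to 70.0 in the other 5 lymphomas, against 13.9 to 33.8 in the controls. Of the Polycomb genes, whose complex is known to silence class I genes in some tumours, EZH2 rose (2.07 ± 0.36, limma adjusted p = 0.00214), SUZ12 rose (0.50 ± 0.14, adjusted p = 0.0216) and EED fell (-0.65 ± 0.16, adjusted p = 0.00985). The median over the 5 genes was 0.50, with 2 higher and 1 lower, against 19.4% and 15.7% of all genes tested. The call of SUZ12 ended without control 2 (adjusted p = 0.0957) or 3 (0.112), and that of EED without control 1 (0.0551). With age as a covariate the adjusted p was 0.0575 for EZH2, 0.146 for SUZ12 and 0.193 for EED. Between Boxer and other-breed lymphomas, 0 of the 48 pathway genes tested passed by limma.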

How the data were processed

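The genes and lists were chosen with earlier results of these data known. Each deposited file gives a signal value for every gene: the authors scaled the read counts of a library by its size factor. The tools named in the submitters' processing notes are TopHat2, HTSeq and DESeq2, and the build is CanFam3.1; no versions are given. In each library 100% of values were whole multiples of the value of 1 read within 0.01 reads, so whole reads were recovered. The main test was limma 3.58.1 (R 4.3.3) on log2(value + 1) with a mean-variance trend, over genes that reached a value of 10 in 3 or more of the libraries compared, adjusted by Benjamini-Hochberg over all of them at 0.05. Fold changes are on that log2(value + 1) scale and are too small for genes of low level. Ratios of gene pairs were compared by exact permutation over libraries. The planned ratio of TAP1 to TAP2 could not be formed.

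Alternatives were edgeR 4.0.16 and DESeq2 1.42.0 on recovered reads, TMM and library-total scaling, pseudocounts of 0.5 and 5, other filters, each library left out, the replicate number as a block, and for lymphoma versus control also age, sex, female dogs alone and other-breed lymphomas 1 and 2 left out. All controls are female and aged 1 year. Sex as a covariate therefore gives the same change as female dogs alone. Age as a covariate takes its slope from the lymphomas alone, so it cannot separate age from disease. The scripts were tested on simulated data. Named pathway genes are up to 4 per list and direction with the smallest p, and others named were chosen after their values were seen. Gene order comes from RefSeq (UU_Cfam_GSD_1.0), not the authors' build, so no coordinates are given. Sequences of these genes and gene lengths are not used here, and levels are not compared between genes. Strand of the libraries: not given in the sources used here. Reads of overlapping antisense genes may therefore not be separable.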

Additional observations from a re-analysis of the deposited data

Results flagged for a closer look

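ERAP2 in Boxer lymphoma 1 stood apart from the other 5 lymphomas: on the log2 scale its gap to the next lowest lymphoma was 0.69 of the range of the 6, above the critical value of 0.625. Chance gives such a gap in about 5% of groups, and 8 genes and 3 ratios were looked at. The library had 276 normalised reads of ERAP2, and the next lowest, Boxer lymphoma 2, had 1277.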

How the results depend on the processing

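For the 8 genes in 4 comparisons, 499 values under alternative settings kept their direction and their side of the threshold, 14 lost and 14 gained a call, and 9 changed sign. DLA-64 and TAPBPL stayed lower in all settings run in the 3 comparisons with controls. Sign changes concerned values that did not pass. Between lymphoma groups, leaving out 1 library gave -0.66 to 0.13 for TAP1 and -0.65 to 0.051 for TAPBP, above 0 without Boxer lymphoma 1. In Boxers against controls TAPBP was -0.071 to 0.63, below 0 without Boxer lymphoma 2. In other breeds against controls B2M was -0.50 to 0.0042, above 0 without other-breed lymphoma 2. ERAP1 was -0.10 to 0.030, above 0 without control 1 (0.030), other-breed lymphoma 1 (0.025) or 2 (0.029), and 0.016 by edgeR and 0.0073 by DESeq2.

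In lymphomas against controls, 3 to 4 of the 8 genes were lower when 1 library was left out and 0 higher. With sex as a covariate and in female dogs alone, which give the same estimate here, 1 was higher, TAPBP. All genes called were 3060 to 5896 without 1 library and 1933 with age. Genes lower in Boxers numbered 2 to 6 without 1 library, with 3346 to 5369 of all genes called. In other breeds 3 genes were lower without any 1 library, 0 to 1 higher, and 1 higher by edgeR and by DESeq2, TAPBP, with 1624 to 4619 of all genes called. Between lymphoma groups all genes called were 102 by DESeq2, 2 with a pseudocount of 5 and 0 to 2 without 1 library. The log2 ratio difference without 1 library was -1.37 to -1.12 for DLA-64 to B2M, -2.40 to -2.03 for TAPBPL to TAPBP and 0.90 to 1.48 for ERAP1 to ERAP2; without a control the first 2 had an adjusted p of 0.0536, the lowest that design allows when 2 of 3 ratios reach the smallest p.

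The replicate number did not pair the samples (correlations of same-numbered deviations -0.14 to 0.10). With it as a replicate block, 3 genes were lower in lymphomas against controls and ERAP2 in Boxers lost its call (adjusted p = 0.0504). The controls are few, and calls near the threshold depend on them.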
